A study of Rattus norvegicus with 20 samples.

Results

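MHC class I presentation is described here through 6 rat genes, namely RT1-CE12, B2m, Tap1, Tap2, Psmb8 and Psmb9, of 4736 genes that the array names on a probe set of their own. The members are all probe sets that the platform's probe table assigns to 1 of these genes alone, which gave 8 probe sets of the 8740 tested. RNA came from dorsal root ganglia on the operated side, the ganglia that house sensory neuron cell bodies, and every sample has 1 Affymetrix rat array. The 8 groups were chronic constriction injury of the sciatic nerve (CCI) at 14 days (n = 3) and 21 days (n = 3), the Seltzer surgery at 14 days (2 arrays), 21 days (3 arrays) and 50 days (2 arrays), and sham surgery with 2 arrays at 14 days, 3 at 21 days and 2 at 50 days. The labels spell the 21-day CCI arrays CC1 in their titles, describe the Seltzer samples as transection of the sciatic nerve, and give neither strain, sex, age nor whether animals were pooled. They do not state that arrays of a group came from different animals, so a p-value measures only the spread between these arrays, which may be technical. A ganglion is a mixed tissue, and more cells of a type cannot be told apart here from more RNA per cell.

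MHC class I molecules show fragments of a cell's own proteins to cytotoxic T cells. Each consists of a heavy chain, such as those encoded by the RT1-C/E genes of the rat, and the light chain beta-2 microglobulin, encoded by B2m. The proteasome cuts the fragments, and interferon exchanges its catalytic subunits for those of the immunoproteasome, among them Psmb8 and Psmb9. Tap1 and Tap2 together form the transporter that carries the peptides into the endoplasmic reticulum, where they are loaded. Neurons are known to carry little class I at rest, and interferon is known to raise it.

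The promoters of these genes are shown because the members are known as interferon targets and because 4 of them are neighbours in the class II region of the rat MHC on chromosome 20. RefSeq (build GRCr8) gave a promoter for all 6, from 250 bases before to 50 after the start of the gene. Capitals mark letters that match GAAANNGAA, from the core of an interferon response element, or the NF-kB consensus, searched on both strands with no overlap between them. The stretches run 5′ to 3′ along the strand of the gene.
B2m, chr3:129549165-129549217, plus strand: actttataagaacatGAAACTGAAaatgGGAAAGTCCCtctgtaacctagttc
Tap1, chr20:4668574-4668678, minus strand: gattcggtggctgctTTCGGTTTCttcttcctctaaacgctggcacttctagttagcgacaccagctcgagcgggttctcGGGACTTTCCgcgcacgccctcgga
Tap2, chr20:4652314-4652352, minus strand: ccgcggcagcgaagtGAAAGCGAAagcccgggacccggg
Psmb8, chr20:4657022-4657051, minus strand: ctcttggtgctgtggctTTCGCTTTCactt
RT1-CE12, chr20:3347226-3347285, minus strand: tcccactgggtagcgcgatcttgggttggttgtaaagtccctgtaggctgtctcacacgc
Psmb9, chr20:4668940-4668999, plus strand: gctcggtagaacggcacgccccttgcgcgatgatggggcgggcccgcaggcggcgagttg
Tap1 and Psmb9 are transcribed away from each other, and their promoter windows share 44 bases on opposite strands. The interferon element was matched in the windows of B2m, Tap1, Tap2 and Psmb8, and in 9.71% of all 33469 rat promoters of 300 bases. The NF-kB consensus was matched in B2m and Tap1, and in 7.51% of those promoters. In B2m the interferon letters lie at -150 to -142 and the NF-kB letters at -137 to -128 from the start, and in Psmb8 the match spans the start itself. A further motif, TTCNNNGAA, known to be bound by STAT factors, was matched in Psmb8 at -245 to -237, outside the printed stretch, and in 8.87% of all promoters. The windows of RT1-CE12 and Psmb9 held none of these 3 motifs, and their last 60 bases before the start are printed for comparison. A match describes letters only.

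Noise was gauged on each array from its values below 0. The size that 95% of them do not exceed served as background, and a probe set above it counted as above background. The level was 599 and 766 on the Seltzer 50-day arrays, 499 on CCI 21-day replicate 1, and 169 to 326 on the other 17. The Seltzer 50-day arrays also stood apart in the RNA quality controls, with actin 3′ to 5′ ratios of 3.94 and 9.88 against at most 2.40 on the others. Their GAPDH 3′ to middle ratios were 5.10 and 8.89 against at most 2.85, while their GAPDH 3′ to 5′ ratios of 1.29 and 1.16 were the lowest of the 20. The sham 50-day arrays had the next highest GAPDH 3′ to middle ratios, 2.84 and 2.85. Calls in the mean over the 3 Seltzer days are therefore also given without the 50-day arrays, an alternative chosen after seeing the data. Of the markers of the tissue, 12 of 12 sensory neuron genes measured and 4 of 4 Schwann cell genes were above background on at least 10 arrays, as were 2 of 6 for satellite glia and 0 of 5 for endothelial cells.

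Of the 8 member probe sets 3 read above background on most arrays, and RT1-CE12 alone did so on every one. The RT1-CE12 probe set M24026_f_at was above background on 20 of 20 arrays, the B2m probe set rc_AI170268_at on 19 and the Tap1 probe set X57523_at on 16, at a median of 1.31 times background. The remaining 5 probe sets, which read Tap1 (X57523_g_at), Tap2 (X63854_at), Psmb8 (D10729_s_at) and Psmb9 (D10757_at and D10757_g_at), were above background on 0 of 20 arrays. Levels of different probe sets cannot be set against each other, since each binds with its own strength. The suffix f of the RT1-CE12 probe set marks probes shared by a family of like sequences, so it may also read other class I heavy chains, and its values are uncertain to that extent. Changes below are differences of log2(intensity + 16) from a limma fit with p-values adjusted over the 8740 probe sets, and folds are ratios of geometric mean intensities.

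**Figure D1:**
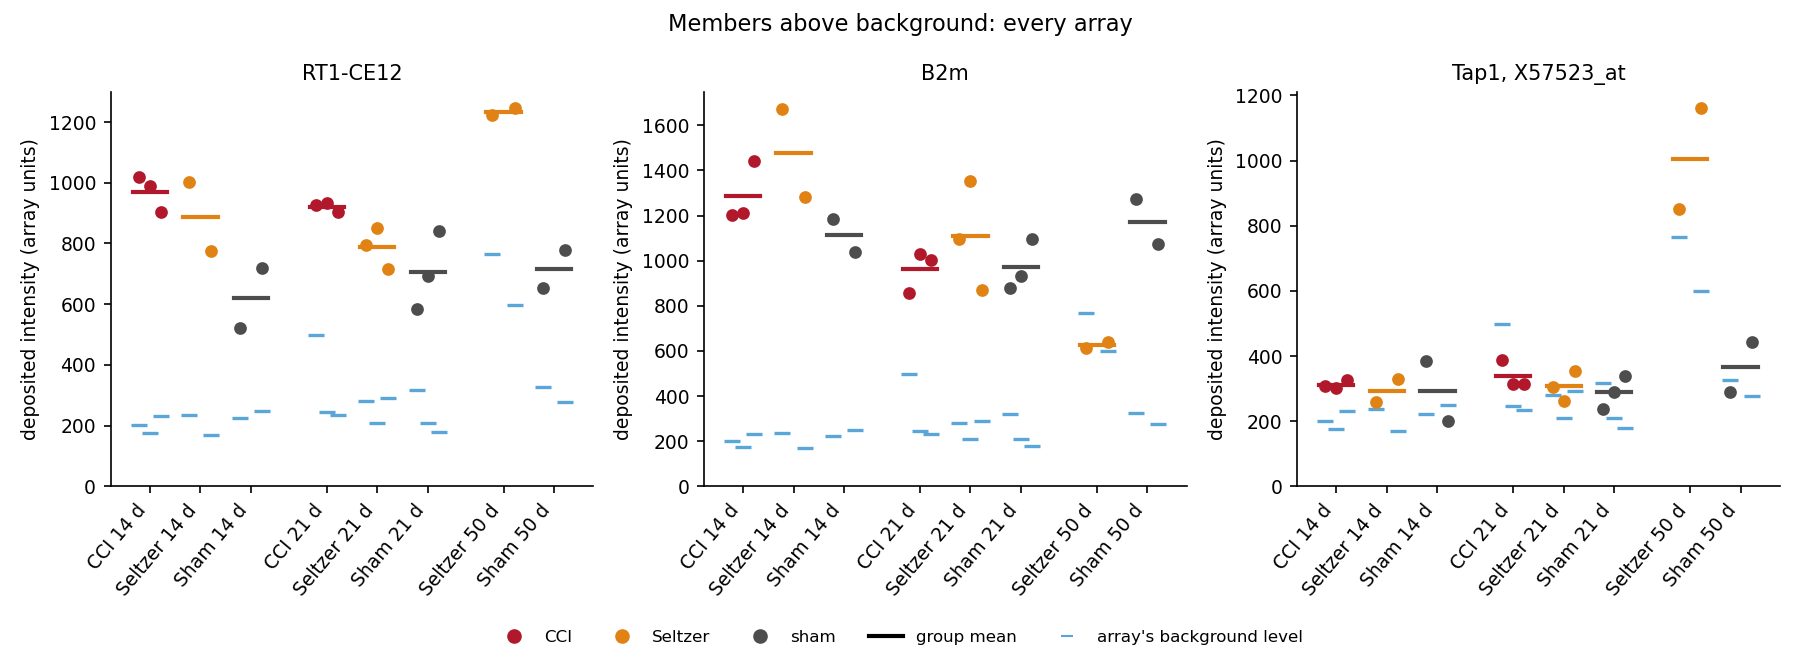
Deposited intensity of RT1-CE12, B2m and Tap1 on every array (points), with the group mean (bar) and each array's background level (blue dash), groups by surgery and day after surgery. RT1-CE12 was higher on every CCI array than on any sham array of the same day, B2m was lowest in the Seltzer 50-day group at 614 and 641, and Tap1 was highest there at 849.9 and 1161.

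RT1-CE12, a class I heavy chain gene, was higher in injured than in sham ganglia after both surgeries. At 14 days its intensity was 1019, 991 and 903 on the CCI arrays, against 522 and 719.5 on the sham arrays. At 21 days it was 927, 932 and 903.5 on the CCI arrays, against 584, 692 and 842 on the sham arrays. CCI and sham arrays did not overlap at either day, and the 3 CCI arrays at 21 days lay close together while the sham arrays of that day were spread widely. How often other probe sets show no overlap, or lie above the sham mean on every array, was not counted, here and below. Psmb9 (D10757_at), below background on all arrays, also did not overlap between CCI and sham at either day. As a mean over both days RT1-CE12 rose by 0.52 (SE 0.11, adjusted p = 0.0216), 1.44-fold, and 6 of 6 CCI arrays exceeded the mean of same-day sham. RT1-CE12 was the only one of the 8 member probe sets to pass in this comparison, in which 2.29% of all probe sets passed. Taken singly, the days gave 0.65 (SE 0.16, adjusted p = 0.0526, 1.58-fold) at 14 days and 0.39 (SE 0.14, adjusted p = 0.315, 1.32-fold) at 21 days, and no member passed at either day, where 2.78% and 0.927% of all probe sets did. The CCI effect at 21 days minus that at 14 days was -0.26, with a 95% interval from -0.72 to 0.21 (adjusted p = 0.709).

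The call for RT1-CE12 after CCI was lost when any of 3 arrays was left out, giving 0.41 (adjusted p = 0.124) without sham 14-day replicate 1, 0.50 (0.0606) without CCI 14-day replicate 1 and 0.51 (0.0535) without CCI 14-day replicate 2. It was also lost with arrays shifted to one median (0.48, adjusted p = 0.0748), with the dimmest probe sets left out (0.125), with a fit restricted to the groups compared (0.0773), and, chosen after seeing the data, with sham at 21 days serving both CCI days (0.43, 0.216) or the 21-day replicate 1 arrays left out (0.45, 0.065).

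After the Seltzer surgery RT1-CE12 had an intensity of 1001 and 774 at 14 days, against 522 and 719.5 on the sham arrays. At 21 days the Seltzer arrays gave 796, 851 and 717, against 584, 692 and 842 on the sham arrays. At 50 days the Seltzer arrays gave 1224 and 1245, against 654 and 779.9 on the sham arrays. The Seltzer arrays lay above sham without overlap at 14 and 50 days and overlapped sham at 21 days. As a mean over the 3 days RT1-CE12 rose by 0.48 (SE 0.096, adjusted p = 0.012), 1.41-fold, with 7 of 7 Seltzer arrays above the sham mean of their day. No other member passed in this mean, in which 4.38% of all probe sets passed. By day the change was 0.51 (adjusted p = 0.936) at 14 days, 0.17 (adjusted p = 0.883) at 21 days and 0.78 (SE 0.18, adjusted p = 0.0104, 1.73-fold) at 50 days. No member passed at 14 or 21 days, where 0.206% and 0.378% of all probe sets did. Without the 50-day arrays the mean was 0.34 (adjusted p = 0.732), and with the dimmest probe sets left out its adjusted p was 0.0649. The CCI and Seltzer groups at 14 and 21 days were set against the same sham arrays, so the comparisons at those days are not independent.

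Ordered by group mean, RT1-CE12 was highest in Seltzer at 50 days (1235 ± 15.2, n = 2), followed by CCI at 14 days (971 ± 60.2, n = 3) and at 21 days (921 ± 15.2, n = 3). Seltzer at 14 days (888 ± 161, n = 2) and at 21 days (788 ± 67.1, n = 3) came next. The 3 sham groups were the lowest, with 717 ± 89.0 (n = 2) at 50 days, 706 ± 130 (n = 3) at 21 days and 621 ± 140 (n = 2) at 14 days. The errors are SDs. Seltzer at 50 days was the only group whose range did not overlap that of its neighbour in this order.

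Macrophages carry both classes of MHC. Of 10 measured macrophage markers 1 passed after CCI, Lyz2, and 0 in the mean over the Seltzer days, where 2.29% and 4.38% of all probe sets passed. At 50 days alone Cd14 rose by 1.31 (adjusted p = 0.0163), where 8.72% of all probe sets passed higher. The intensity of the 10 markers, summed with values below 0 as 0, was 2332 to 3045 in CCI and 2405 to 2769 in Seltzer at 14 days, against 1442 to 2041 in sham. At 21 days the sum was 2431 to 3238 in CCI and 1852 to 2294 in Seltzer, against 1150 to 1615 in sham. At 50 days it was 1435 to 2023 in Seltzer, against 1086 to 1297 in sham. These ranges did not overlap between injured and sham arrays at any day, and how often other sums do so was not counted. Lysozyme (Lyz2) made up most of the sum at 14 and 21 days and rose after CCI by 1.21 (adjusted p = 0.00794). It read 521 ± 229 in Seltzer at 50 days, against 528 ± 85.0 in sham (SD, n = 2 each). Of the 10 markers 8, Csf1r and Aif1 among them, were above background on no array. Of 12 T cell and NK cell markers 11 were above background on no array, and Cd3d was at or below 0 on all 20. The sums of 7 measured skeletal muscle genes also differed, with 7118 to 8179 in CCI against 2802 to 3440 in sham at 14 days, and 809 to 1533 in CCI against 3220 to 3725 in sham at 21 days, and 2463 to 3443 in Seltzer against 739 to 1114 in sham at 50 days. The part of these cells in the RT1-CE12 result was not tested.

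B2m, the light chain shared by all class I molecules, did not pass in the mean after either injury, and fell at 50 days. At 14 days its intensity was 1203, 1213 and 1441 in CCI and 1673 and 1283 in Seltzer, against 1185 and 1040 in sham. At 21 days it was 856, 1028 and 1005 in CCI and 1098, 1356 and 869.5 in Seltzer, against 881, 932.5 and 1098 in sham. The injured arrays lay above sham at 14 days without overlap and overlapped sham at 21 days. The mean change over both days after CCI was 0.10, with a 95% interval from -0.16 to 0.35 (adjusted p = 0.871). The change of 0.52 of RT1-CE12 lies above that interval, and the difference between the genes was not tested.

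At 50 days B2m was 614 and 641 in Seltzer, against 1273 and 1073 in sham, and fell by 0.88 (SE 0.19, adjusted p = 0.00836), 1.86-fold lower. On 1 of the 2 Seltzer arrays this lay below the background level of that array. The Seltzer effect on B2m differed over 14, 21 and 50 days (limma F test chosen after seeing the data, adjusted p = 0.0217, where 6.13% of all probe sets passed), with changes of 0.40, 0.17 and -0.88 in that order. As a mean over the 3 days the change was -0.10, with a 95% interval from -0.33 to 0.12 (adjusted p = 0.712), and it was 0.28 without the 50-day arrays. In the order of group means Seltzer at 14 days was highest (1478 ± 275, n = 2) and Seltzer at 50 days lowest (627 ± 19.3, n = 2), and Seltzer at 50 days alone had a range apart from that of its neighbour, CCI at 21 days (963 ± 93.1, n = 3). A further B2m probe set is assigned to several genes in the probe table and was left out.

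Tap1, the first subunit of the peptide transporter, passed at neither 14 nor 21 days and rose at 50 days on its brighter probe set. At 14 days X57523_at read 307, 303 and 326 in CCI and 258 and 329.5 in Seltzer, against 386 and 202 in sham. At 21 days it read 388, 313 and 314 in CCI and 306, 262 and 354 in Seltzer, against 237, 290.4 and 338 in sham. All 4 injured groups overlapped sham, and the mean change after CCI was 0.19, with a 95% interval from -0.18 to 0.56 (adjusted p = 0.801). At 50 days it read 849.9 and 1161 in Seltzer, against 290.1 and 444 in sham, without overlap. This was a rise of 1.43 (SE 0.28, adjusted p = 0.00449). The readings lay at 1.11 and 1.94 times background in Seltzer, and sham replicate 1 lay below background at 0.891 times, so the ratio of 2.77 between the group means compares levels near the noise. The mean over the 3 Seltzer days was 0.53 (adjusted p = 0.0748), and 0.07 (adjusted p = 1) without the 50-day arrays. Seltzer at 50 days had the highest mean (1005 ± 220, n = 2), and its range alone stood apart from the next group, sham at 50 days (367 ± 109, n = 2), while the other 7 group means lay between 288 and 367. The probe set X57523_g_at did not follow, reading -57.3 and -118 in Seltzer against 10.6 and -30.1 in sham at 50 days, all below background.

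Tap2, the second transporter subunit, read 29.0 to 128.3 over the 20 arrays, at most 0.42 times background. Its change was -0.46 after CCI (adjusted p = 0.596) and 0.22 after the Seltzer surgery (adjusted p = 0.724), both as means over days. Neither passed, and at this signal no change could be measured.

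**Figure D2:**
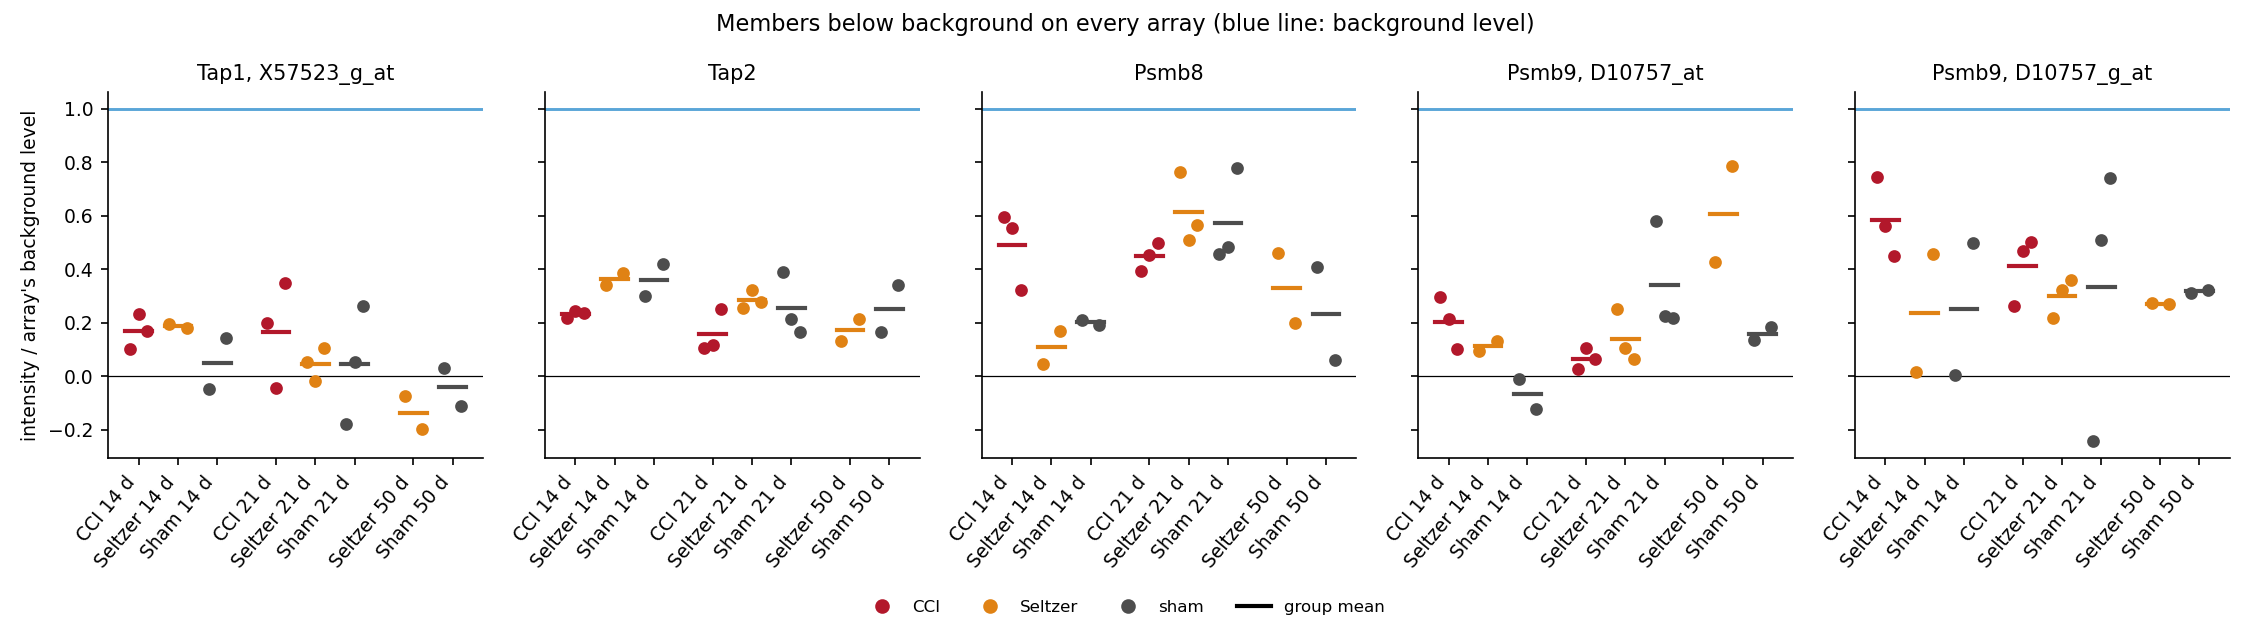
Intensity divided by the array's background level for the 5 member probe sets below background on all arrays, each point 1 array and each bar a group mean, by surgery and day after surgery. No point reaches the blue line at 1, and the highest is Psmb9 (D10757_at) at 0.787 on a Seltzer 50-day array.

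The immunoproteasome subunits Psmb8 and Psmb9, which replace catalytic subunits of the standard proteasome, were not above background on any array. Psmb8 read 74.9 to 119.8 in CCI and 10.9 to 28.9 in Seltzer, against 47.4 to 47.5 in sham at 14 days. At 21 days it read 111.2 to 195.5 in CCI and 106.0 to 214.9 in Seltzer, against 100.9 to 145.6 in sham. At 50 days the Seltzer arrays gave 351.7 and 120.3, against 133.0 and 16.6 on the sham arrays, a change of 1.68 (adjusted p = 0.0827). Psmb8 passed in no comparison, with a mean change of 0.46 after CCI (adjusted p = 0.786).

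Psmb9 on D10757_at passed in several comparisons while its values lay between -30.1 and 471.4, within the noise of the arrays. At 14 days it read 59.6, 37.4 and 23.9 in CCI and 22.2 and 22.3 in Seltzer, against -1.7 and -30.1 in sham. At 21 days it read 13.3, 25.7 and 15.2 in CCI and 70.5, 21.9 and 19.1 in Seltzer, against 185.4, 46.9 and 39.4 in sham. At 50 days it read 327.8 and 471.4 in Seltzer, against 44.1 and 51.0 in sham, a log2 difference of 2.69 (SE 0.55, adjusted p = 0.00591). The sham groups themselves differed over the days on this probe set (limma F test, adjusted p = 0.0172), the one member probe set of which this was so, where 8.48% of all probe sets passed. That call was lost with a pseudocount of 64 (adjusted p = 0.0909), with only the sham arrays fitted (0.175), and without sham 14-day replicate 1 (0.103) or 2 (0.101). The CCI effect at 21 days minus that at 14 days was -3.17 (adjusted p = 0.0332), the one member call in that comparison, in which 1.80% of all probe sets passed. The second Psmb9 probe set, D10757_g_at, had a change of 1.23 after CCI (adjusted p = 0.545) and of 0.84 at 50 days (adjusted p = 0.722). No fold is given for any of these probe sets, because the change of a value near 0 depends on the number added before the log.

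At 50 days after the Seltzer surgery RT1-CE12, Tap1 (X57523_at) and Psmb9 (D10757_at) passed higher and B2m passed lower, 4 of the 8 member probe sets, where 15.9% of all probe sets passed, 8.72% higher and 7.20% lower. The members did not move in one direction. Without sham 50-day replicate 1 the adjusted p was 0.0835 for RT1-CE12, 0.0678 for B2m and 0.0507 for Tap1, and without Seltzer 50-day replicate 1 it was 0.0507 for B2m. With only the 50-day groups in the fit it was 0.0789, 0.0684 and 0.141 for RT1-CE12, B2m and Tap1. The higher background and the actin ratios of 3.94 and 9.88 moved with these calls, and their part was not tested. At this day 12 T cell and NK cell markers summed to 1667 to 2064 in Seltzer, against 655 to 721 in sham. Of the 12, Cd3g and Cd5 passed higher, both above background on no array, and 11 of the 12 were above it on none. The sum of 5 endothelial markers was 672 to 710 in Seltzer, against 232 to 285 in sham. None passed, and all 5 were above background on no array. As values below 0 counted as 0, sums of such dim markers also depend on the noise of an array. The sum of 12 sensory neuron genes was 27182 to 29114 in Seltzer, against 35781 to 38397 in sham, and 5 of the 12 fell. Neither the part of these cell types nor that of the noise was tested.

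**Figure D3:**
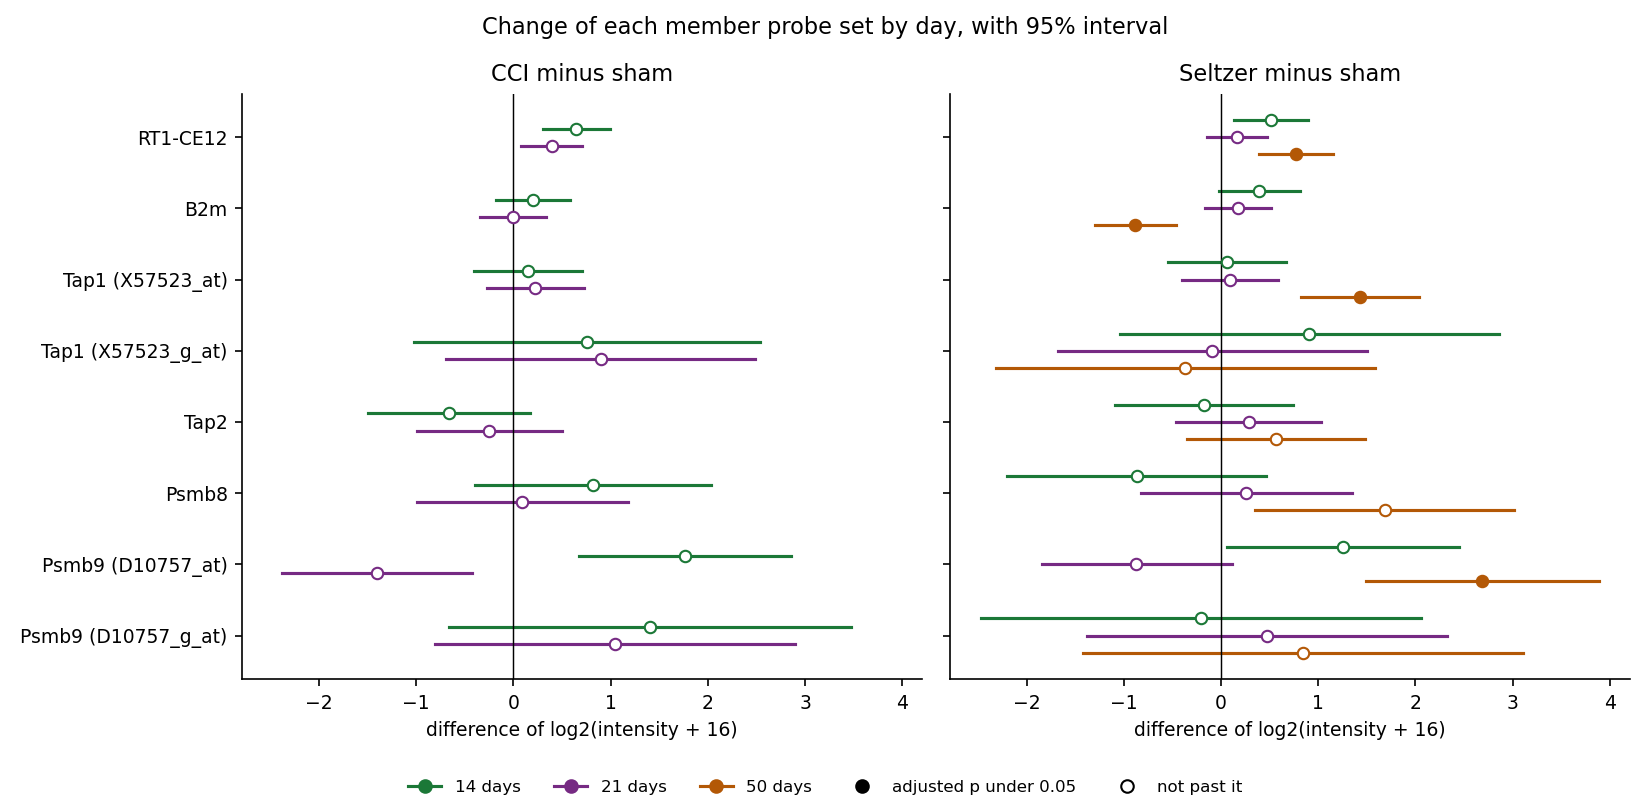
Difference of log2(intensity + 16) for each member probe set by day after surgery, CCI minus sham and Seltzer minus sham, with 95% intervals from the limma fit and filled points where the adjusted p was under 0.05. Among single days the calls lie at 50 days, where RT1-CE12 (0.78), Tap1 (1.43) and Psmb9 (2.69, below background) are positive and B2m is negative (-0.88).

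Between the injuries no member passed, where 0.927% of all probe sets did. RT1-CE12 was higher by 0.18 in CCI than in Seltzer as the mean of 14 and 21 days, with a 95% interval from -0.05 to 0.41 (adjusted p = 0.714). B2m differed by -0.19, with a 95% interval from -0.44 to 0.07 (adjusted p = 0.738), and Tap1 (X57523_at) by 0.11, with a 95% interval from -0.26 to 0.49 (adjusted p = 0.968). For RT1-CE12 the CCI arrays at 21 days lay above all 3 Seltzer arrays of that day, and at 14 days the groups overlapped. In sham ganglia RT1-CE12, B2m and Tap1 (X57523_at) did not pass in the F test over days (adjusted p = 0.744, 0.619 and 0.727).

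The wider class I pathway was described with lists, 1 probe set for each gene. Of 27 listed class I chain genes 11 were measured. After CCI RT1-CE12 alone passed, where 2.29% of all probe sets did, with a list median of 0.26 against 0.00 over all 4736 genes. After the Seltzer surgery RT1-CE12 alone passed again, where 4.38% of all probe sets did, with a median of 0.21 against 0.05 over all genes. At 50 days alone RT1-CE12 and RT1-S3 (AF029240_g_at, below background on all arrays) passed higher and B2m lower. RT1-S3 did not pass there on AF029240_at (-0.48, adjusted p = 0.669) or rc_AI235890_s_at (2.14, adjusted p = 0.154), both also below background on all arrays. Of all probe sets 8.72% passed higher at 50 days and 7.20% lower, and the list median was 0.78 against 0.02 over all genes. On this list RT1-A3, RT1-N3, RT1-S3, Hfe, Cd1d1 and Mr1 were above background on no array. The list medians therefore rest in part on noise. RT1-CE16, a further class I gene of the same family, was above background on all 20 arrays and had a change of 0.28 (SE 0.30, adjusted p = 0.844) after CCI, its sham arrays at 21 days ranging from 989 to 3325. Fcgrt, the class I-like receptor that recycles antibodies with B2m as its partner, was also above background on all 20 arrays and had a change of -0.06 (adjusted p = 1). The 10 other class I probe sets of 1 gene symbol were looked up after values were seen, and of these RT1-M5 alone passed in the means over days. Among them RT1-A and RT1-M5 are genes outside the lists. RT1-A, the classical class I gene of the rat, had a change of 0.16 after CCI (SE 0.12, adjusted p = 0.752) and of -0.21 after the Seltzer surgery (SE 0.11, adjusted p = 0.356). At 50 days alone its change was -0.57 (SE 0.20, adjusted p = 0.0695), while that of RT1-CE16 was 1.02 (SE 0.49, adjusted p = 0.188). The probe set of RT1-M5, a class I-like gene, rose by 0.89 (SE 0.18, adjusted p = 0.0156) after CCI and by 0.65 (SE 0.16, adjusted p = 0.035) after the Seltzer surgery. Without the 50-day arrays the Seltzer change was 0.53 (adjusted p = 0.812), and the probe set was above background on only 4 arrays. The probe sets of RT1-CE16 and RT1-A are of the same shared-probe kind as that of RT1-CE12, and they did not pass.

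Peptide loading genes, which fold the heavy chain and fit the peptide, were measured for 6 of 9. None of them passed in the means over days after CCI or the Seltzer surgery, where 2.29% and 4.38% of all probe sets did. The list median was -0.27 after CCI and -0.18 after the Seltzer surgery. The chaperones calreticulin (Calr), calnexin (Canx) and Pdia3 had changes of -0.28, -0.19 and -0.32 after CCI (adjusted p = 0.604, 0.812 and 0.527). Of 5 genes of the immunoproteasome and its activator 4 were measured and none passed, with a median of 0.32 after CCI and 0.36 after the Seltzer surgery. Psmb8 and Psmb9 were above background on no array and Psme2 on 3, so these medians rest mostly on noise. In that list Psme1, an activator subunit, was above background on all 20 arrays with a change of 0.18 (adjusted p = 0.919) after CCI and 0.52 (adjusted p = 0.279) after the Seltzer surgery.

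The standard proteasome was measured for 19 of 25 genes. After CCI Psmb4, a structural subunit of its core, rose by 0.69 (SE 0.11, adjusted p = 0.00279). The other 18 did not pass, with a list median of -0.11, where 2.29% of all probe sets passed. Psmb4 read 3507 ± 304 in CCI at 14 days (SD, n = 3), against 1523 ± 142 in sham (n = 2). At 21 days it read 3497 ± 732 in CCI (n = 3), against 3057 ± 308 in sham (n = 3), and its CCI effect was smaller at 21 than at 14 days by -1.02 (adjusted p = 0.0263). After the Seltzer surgery 6 fell and none rose, with a median of -0.38, where 4.38% of all probe sets passed. The core subunits Psmb1 (-1.10, adjusted p = 0.000352) and Psma7 (-0.88, adjusted p = 0.0365) fell, as did Psmc4, an ATPase of the proteasome cap (-1.20, adjusted p = 1.8e-05). Psmc4 read -61.3 and -95.0 in Seltzer at 50 days, against 130.0 and 137.1 in sham, all below background, so the size of its change depends on the pseudocount. Without the 50-day arrays none of the 19 passed, with a median of -0.02, and Psmc4, Psmb1 and Psma7 had changes of -0.18, 0.01 and 0.12. Few of all probe sets passed in that refit, as given in the last section, so the lack of calls says little on this list. At 50 days alone 11 of the 19 fell, with a median of -1.07, where 15.9% of all probe sets passed and 7.20% passed lower. The median was -0.04 at 14 days and -0.06 at 21 days, where none passed and 0.206% and 0.378% of all probe sets did. These falls lay on the arrays with the high background, whose part was not tested.

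**Figure D4:**
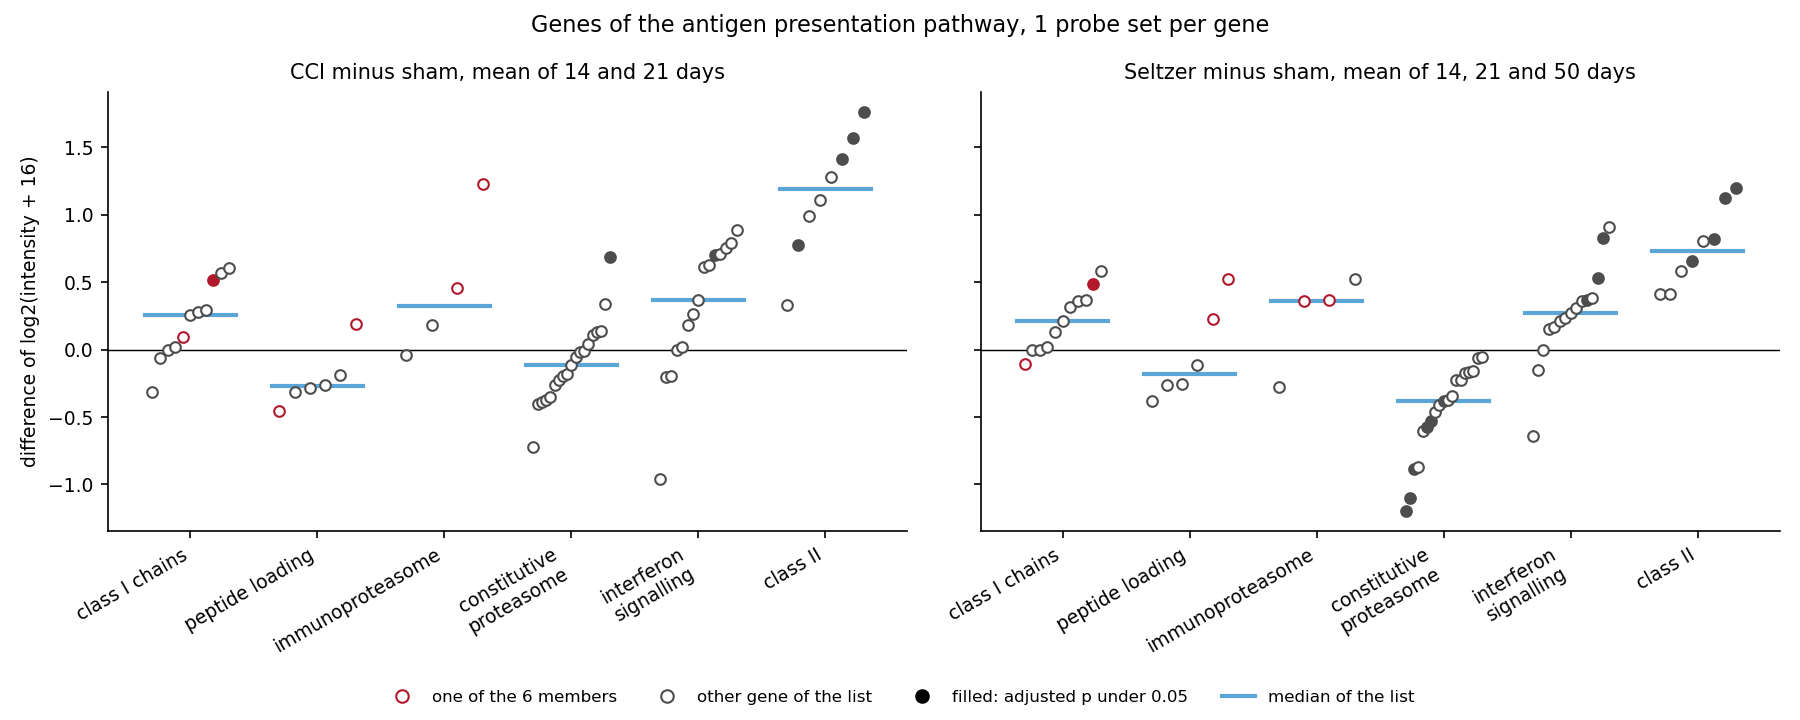
Difference of log2(intensity + 16) for the genes of 6 pathway lists, 1 probe set for each gene, as the mean over days for CCI minus sham and Seltzer minus sham, with members in red, filled points where the adjusted p was under 0.05 and a blue bar at the median of each list. Class II genes lie highest in both panels (medians 1.19 and 0.73), and the standard proteasome lies lowest after the Seltzer surgery (median -0.38).

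Interferon genes and regulators of class I were measured for 15 of 23. After CCI Ifitm3, an interferon-induced membrane protein that hinders virus entry, rose by 0.70 (SE 0.099, adjusted p = 0.00158). The list median was 0.37, against 0.00 over all 4736 genes. Ifitm3 read 284 ± 47.5 in CCI (SD, n = 3) against 153 ± 1.10 in sham (n = 2) at 14 days, and 304 ± 55.3 in CCI (n = 3) against 196 ± 21.0 in sham (n = 3) at 21 days. After the Seltzer surgery the list median was 0.27, against 0.05 over all genes. Ifitm3 (0.37, adjusted p = 0.0351) and the antiviral GTPase gene Mx1 (0.83, adjusted p = 0.0322) rose. So did Oas1a, a sensor of double-stranded RNA (0.53, adjusted p = 0.0366). Without the 50-day arrays these changes were 0.48 (adjusted p = 0.152), 0.45 (adjusted p = 1) and 0.12 (adjusted p = 1), in that order, and none of the 15 passed. Few of all probe sets passed in that refit, as given in the last section. Ifitm3 was above background on 9 of 20 arrays and Mx1 on 1. Oas1a read 879 ± 22.2 in Seltzer at 50 days (n = 2), against 333 ± 8.85 in sham (n = 2). Interferon gamma (Ifng), its receptor chain Ifngr1 and Jak1 were above background on no array, and Irf1, the factor known to bind the interferon element of class I genes, on 2. Jak2, Irf2, Irf7, Irf8, Ifnar1 and Gbp2 were also above background on no array, so the medians of this list rest in part on noise. Of 8 class II genes measured 4 rose after CCI and 4 after the Seltzer surgery, Cd74, RT1-Da, RT1-Bb and Ctss in both, with medians of 1.19 and 0.73, where 2.29% and 4.38% of all probe sets passed. RT1-Bb was above background on 2 arrays and Ctss on 9. Without the 50-day arrays Cd74 (1.38), RT1-Da (1.20) and Ctss (1.08) passed after the Seltzer surgery and RT1-Bb did not (0.34, adjusted p = 0.82).

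The genes whose group means followed each bright member most closely were found among 1346 probe sets above background on at least 10 arrays. For RT1-CE12 they were Bin1, a membrane-shaping protein (Pearson's r = 0.88 over the 8 group means and 0.729 over the 20 arrays), A2m, a protease inhibitor (0.868 and 0.466), and Lgals3bp, a secreted galectin-binding protein (0.852 and 0.565). For B2m they were Ywhaq (0.962 and 0.793), Entpd2 (0.957 and 0.819) and Pam (0.956 and 0.681). For Tap1 (X57523_at) they were Ndufaf3 (0.992 and 0.814), Slc18a3 (0.986 and 0.864) and Rgs14 (0.983 and 0.788). The points share arrays and are not independent, and for RT1-CE12, B2m and Tap1 the Seltzer 50-day group stands apart from the other 7. Bin1, A2m and Lgals3bp also had their highest group means there. Among the members themselves RT1-CE12 and Tap1 (X57523_at) had r = 0.553 over the 20 arrays, RT1-CE12 and B2m had -0.256, and B2m and Tap1 had -0.685. These are descriptions of 20 arrays in 8 groups and no test was made of them.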

How the data were processed

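The authors deposited 1 table of intensity on a linear scale, with 8799 probe sets, 20 arrays and 28.9% of values below 0. No software, background step or scaling is given in the sources used here. Array medians ran from 43.2 to 76.7. The 59 array controls were left out of tests. Negative values became 0, and log2(value + 16) was tested. One mean for each of 8 groups was fitted with limma 3.58.1 (lmFit, eBayes) in R 4.3.3 with statmod 1.5.0 (12 residual degrees of freedom). Tests were two-sided, adjusted by Benjamini-Hochberg over 8740 probe sets, with a threshold of 0.05. Figures used Python 3.11.15, pandas 2.3.3 and matplotlib 3.10.9.

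Gene symbols are those of the platform's probe table. Each list gene stands on its probe set of highest mean. The genes named are the members, up to 4 list members past the threshold with the largest changes, and the 3 genes most like each bright member. RT1-A, RT1-M5, RT1-CE16, Fcgrt, the loading chaperones, Psme1, Lyz2, Cd14 and genes named as below background were added after their values were seen. So were Psme2 and the further RT1-S3 probe sets. The members and lists were chosen with earlier results of these data known. Folds are given only where both groups were above background on at least 1 array.

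Alternatives were a pseudocount of 64, arrays shifted to one median, quantile normalization, the dimmest probe sets left out, a fit of the compared groups alone, a replicate block, trended and robust eBayes, and each array left out. On 3 CCI arrays a lot batch is noted that equals the replicate number and is not explained, so no batch was fitted beyond that block. Deviations of same-numbered Seltzer and sham arrays at 21 days correlated at 0.299, 0.226 and 0.110. Arrays with different numbers were not set beside them, so these values cannot show whether the numbers pair arrays. The main fit treated arrays as unpaired, and the replicate block was an alternative. For CCI and sham at 21 days the values were 0.0606, 0.0881 and 0.0931, and for CCI and Seltzer at 21 days 0.0195, 0.1006 and -0.0053. No 2 arrays held identical values. On simulated data for CCI over both days with 8740 probe sets, 45% of changes of 1 and 79% of changes of 2 on the log2 scale were recovered, with 14 false calls. Changes were placed only in probe sets whose mean log2 value exceeded the median, with independent normal noise. Recovery of smaller changes, or of changes in dimmer probe sets, was not measured.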

Additional observations from a re-analysis of the deposited data

Results flagged for a closer look

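The Seltzer effect on B2m differed between 14, 21 and 50 days (limma F test of the interaction, adjusted p = 0.02169). The changes were 0.40, 0.17 and -0.88, and the 50-day value rests on 2 Seltzer arrays with background levels of 599 and 766. The call was lost with arrays shifted to one median (adjusted p = 0.0785), with the dimmest probe sets left out (0.087), with only the groups compared (0.0592), without either Seltzer 50-day array (0.0805 without replicate 1, 0.0579 without replicate 2) and without sham 50-day replicate 1 (0.11).

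The CCI effect on Psmb9 (D10757_at) differed between 21 and 14 days, by -3.17 (SE 0.68, adjusted p = 0.03315, where 1.80% of all probe sets passed). The change was 1.77 at 14 days and -1.40 at 21 days, with every value below background. The call was lost with a pseudocount of 64 (-1.48, adjusted p = 0.136), with only the groups compared (0.119) and without the 50-day arrays (0.07). Among single arrays it was lost without CCI 14-day replicate 1 (0.0855) or 2 (0.073), CCI 21-day replicate 1 (0.0664) or 3 (0.0609), sham 14-day replicate 1 (0.114) or 2 (0.101), and either sham 50-day array (0.0513 each).

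The Seltzer effect on the same Psmb9 probe set also differed between the 3 days (adjusted p = 0.02195), with changes of 1.26, -0.87 and 2.69. The call was lost with only the groups compared (0.0646), and without Seltzer 21-day replicate 2 (0.0506), Seltzer 50-day replicate 2 (0.0634) or sham 50-day replicate 1 (0.0716) or 2 (0.0649). The sham arrays of this probe set read -1.7 and -30.1 at 14 days, 185.4, 46.9 and 39.4 at 21 days, and 44.1 and 51.0 at 50 days.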

How the results depend on the processing

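Over 27 alternatives and 3 chosen after seeing the data, 2479 of 2544 values of the member probe sets kept their side of the threshold. 43 lost a call, 22 gained one and none of them turned sign, while 63 values with no call in either setting had another sign. Most of the 2544 values had no call in the main fit, so this count says little on how firm the calls are. The Psmb9 (D10757_at) call on the CCI effect between days held in 18 of 29 alternatives. RT1-CE12 kept a positive change after CCI in 30 of 30 alternatives (0.41 to 0.63) and passed in 22, and after the Seltzer surgery it passed in 27 of 29. At CCI 14 days it passed in 8 of 30, with 0.87 (adjusted p = 0.0271) without sham 14-day replicate 2. With the replicate block Psmb9 (D10757_at) passed at CCI 14 days (1.98, adjusted p = 0.0451), RT1-CE12 stayed past the threshold after CCI (adjusted p = 0.0477), and no other member call changed.

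Counts of all probe sets past the threshold moved more. Leaving out each array in turn gave 147 to 264 for CCI, 142 to 348 for CCI 14 days, 57 to 99 for CCI 21 days, 247 to 711 for Seltzer, 13 to 56 for Seltzer 14 days, 19 to 56 for Seltzer 21 days, 660 to 1892 for Seltzer 50 days, 62 to 152 for CCI against Seltzer, 118 to 177 for the CCI effect between days, 442 to 1100 for sham over days and 316 to 909 for the Seltzer effect over days. With the dimmest probe sets left out 131 passed for CCI, 153 for CCI 14 days, 7 and 9 for Seltzer 14 and 21 days, 50 for CCI against Seltzer and 331 for the Seltzer effect over days. With only the groups compared 514 passed for CCI 14 days, 13 for CCI 21 days, 841 for Seltzer 50 days and, by limma, 0 for Seltzer 14 and 21 days (752 and 461 at an unadjusted p under 0.05). With arrays shifted to one median 16 passed for Seltzer 21 days. Without the 50-day arrays 21 passed for Seltzer and 20 for Seltzer 21 days. With the 21-day sham arrays as control 86 passed for CCI and 58 for CCI 14 days. Without the 21-day replicate 1 arrays 394 passed for CCI, 610 for CCI 14 days, 1039 for Seltzer, 51 for Seltzer 14 days, 2531 for Seltzer 50 days, 278 for CCI against Seltzer, 257 for the CCI effect between days, 1394 for sham over days and 1300 for the Seltzer effect over days. The causes were not tested. Groups of 2 keep a lone array in those fits, whose spread is then taken from the remaining groups. Signal over background limits Tap2, Psmb8, Psmb9 and the Tap1 probe set X57523_g_at, above background on no array.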
